A study of Mus musculus with 4 samples.

Results

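Formins are the proteins that start and lengthen unbranched actin filaments, and 10 members of the mouse family are described here in endothelial cells of the heart: Diaph1, Diaph2, Diaph3, Daam1, Daam2, Fmnl1, Fmnl2, Fmnl3, Inf2 and Fhod1. They were taken as all non-control array probes whose RefSeq transcript accession belongs to one of these symbols, which gave 16 of the 41174 probes and all 10 genes. The data are 1-colour Agilent oligonucleotide arrays of total RNA from endothelial cells, the cells that line vessels and heart chambers, isolated from adult mouse hearts. Control (wild type) and G2-EC-KO, whose genotype the labels give as Gata2 knock out, had 2 arrays each. Gata2 encodes a GATA-binding transcription factor active in blood progenitors and endothelium. The strain, sex, exact age, the driver of the deletion and whether a sample pooled animals are not given in the sources used here, nor whether replicates are separate animals, so a p-value measures only the spread between these samples. The comparison is of G2-EC-KO with control. The family was selected on the measured difference of Diaph3 between these groups, so differences between the groups are given as a description and the fit's counts support nothing about the family.

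A formin works as a dimer of its formin homology 2 domain, which stays on the growing end of an actin filament, while the neighbouring proline-rich domain takes up actin bound to profilin. Diaph1, Diaph2 and Diaph3 are the diaphanous formins and, like the Daam and Fmnl proteins, are held folded by their own ends until they are activated. Diaph3 serves in cytokinesis, where it builds actin of the contractile ring. Daam1 and Daam2 bind Dishevelled in planar polarity signalling, Fmnl1 is the formin of leukocytes, Fmnl2 and Fmnl3 act in protrusions and in the shape of endothelial tubes, Inf2 both builds and severs filaments, and Fhod1 bundles stress fibres.

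The promoters of 3 members are shown: those of Diaph3 and Daam2 because they had the highest and the lowest difference between the groups, and that of Fmnl3 because it was the other member promoter with more than 1 CCAAT box. The sequences are RefSeq annotation on GRCm38.p6, from 250 bases before to 50 bases after the annotated start, 5′ to 3′ on the strand of the gene, with each CCAAT box (CCAAT, or ATTGG on the other strand) in capitals. Diaph3 lies at chr14:87141175-87141474 on the minus strand, Daam2 at chr17:49564261-49564560 on the minus strand and Fmnl3 at chr15:99370433-99370732 on the minus strand.
Diaph3: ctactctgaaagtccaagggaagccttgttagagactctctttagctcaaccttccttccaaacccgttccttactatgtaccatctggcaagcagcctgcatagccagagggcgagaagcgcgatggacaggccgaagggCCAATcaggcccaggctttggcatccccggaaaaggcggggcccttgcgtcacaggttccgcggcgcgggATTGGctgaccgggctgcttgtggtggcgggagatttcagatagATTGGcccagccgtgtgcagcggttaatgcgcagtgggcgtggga
Daam2: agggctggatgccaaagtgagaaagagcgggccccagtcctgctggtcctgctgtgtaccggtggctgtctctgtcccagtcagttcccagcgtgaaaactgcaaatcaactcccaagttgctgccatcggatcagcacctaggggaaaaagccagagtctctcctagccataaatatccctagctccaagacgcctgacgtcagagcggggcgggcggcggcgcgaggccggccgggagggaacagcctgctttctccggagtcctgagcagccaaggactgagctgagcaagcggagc
Fmnl3: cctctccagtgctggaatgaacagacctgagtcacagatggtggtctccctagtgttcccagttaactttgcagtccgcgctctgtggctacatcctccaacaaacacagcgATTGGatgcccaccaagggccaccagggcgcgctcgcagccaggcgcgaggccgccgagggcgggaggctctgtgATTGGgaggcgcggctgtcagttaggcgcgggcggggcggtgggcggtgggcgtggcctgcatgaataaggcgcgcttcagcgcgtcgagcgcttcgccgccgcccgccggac
The Diaph3 promoter held 3 CCAAT boxes, with first bases at -109, -39 and 6 counted from the start as 1; 3 or more were present in 3.37% of the 32851 promoters of this length. The Fmnl3 promoter held 2 and the Daam2 promoter 0. Promoters were listed for 9 of the 10 genes, 12 in all, and not for Diaph1. At least 1 CCAAT box was present in 3 of these 9 genes, against 41.1% of all genes with a promoter in the table. The letters TTTGAA of the cell cycle homology region, searched on both strands as were all motifs, was in 0 of the 9 genes, against 20.2% of all genes. The E2F letters TTCCCGC, with the variants TTCGCGC, also TTGCCGC, further TTGGCGC, were in 3, Fmnl2, Inf2 and Fhod1, against 10.9%. The GATA letters AGATAA, with the variants AGATAG, also TGATAA, further TGATAG, were in 4, Diaph2, Diaph3, Daam1 and Inf2, against 33% of all genes. Among the 29 cell cycle genes described further on, 24 had a promoter in the table. Of these, 20 held a CCAAT box, 11 TTTGAA, 8 the E2F letters and 3 the GATA letters. Of the 17 contractile ring and cytokinesis genes, 14 had a promoter in the table. Here 7 held a CCAAT box, 10 TTTGAA, 2 the E2F letters and 2 the GATA letters. A match of letters is a description of the sequence and does not show binding.

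The arrays held 43379 non-control spots each, 0 of them saturated, and 63.8% to 66.5% of probes were well above background. The 75th percentile of the processed signal, to which each array was scaled, ran from 1183 to 1441. The arrays sat on 1 slide with control and G2-EC-KO in neighbouring positions by group, so position and group cannot be told apart. On every array, all 18 probes of endothelial marker genes were detected, that is well above background. Markers of cardiomyocytes were so at 26 or 27 of 29 probes, of pericytes and smooth muscle at 14 of 14 and of lymphocytes at 13 or 14 of 15, so RNA of other cell types was present in all 4 preparations. In such bulk RNA, fewer cells of a type and less RNA per cell cannot be told apart. The probes of Gata2 had differences of 0.30 (SE 0.18) and 0.17 (SE 0.14) between G2-EC-KO and control; whether they lie in the deleted part is not given in the sources used here, so they check nothing and every direction rests on the labels. Control replicate 2 was the array on which Xist was not well above background and 6 of 6 probes of Y-linked genes were, against 0 of these on each of the other arrays. The control arrays thus differed from each other in sex-linked signal and the G2-EC-KO arrays did not, so every comparison of the groups is unbalanced in it. The part of this imbalance in the differences was not tested.

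In all, 15 of the 16 formin probes were well above background on at least 2 arrays and entered the fit over all 26893 probes. The exception is a further probe of Daam2, A_52_P412674, which was well above background on 0 arrays. The fit is limma with Benjamini-Hochberg adjustment, two-sided, at 0.05. Of the 15 formin probes, 0 passed, against 0.00372% of all probes tested. At an unadjusted p under 0.05 the count was 2, both of Diaph3 and both with G2-EC-KO higher. The share of all probes was 9.61% (4.96% higher and 4.65% lower). Of these Diaph3 probes, A_51_P403260 passed the filter by its G2-EC-KO signal alone, which favoured a higher value in that group. The same probe is also among the 5 above 0 and the 4 with G2-EC-KO higher given next. The difference was above 0 at 5 formin probes and below 0 at 10, against 50.1% and 49.9% of all probes. The groups did not overlap at 4 formin probes with G2-EC-KO higher and at 6 with control higher, shares to be set beside 24.1% and 22.3% of all probes. By the brightest probe of each gene, 4 of the 10 genes had a difference above 0 and 6 below, with a median of -0.022, beside 58.5% above 0, 41.5% below 0 and a median of 0.043 over all 13628 genes. By that probe, 0 of the 13628 genes passed the threshold, so the counts of 0 past it in the gene lists below say nothing about those lists.

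**Figure D1:**
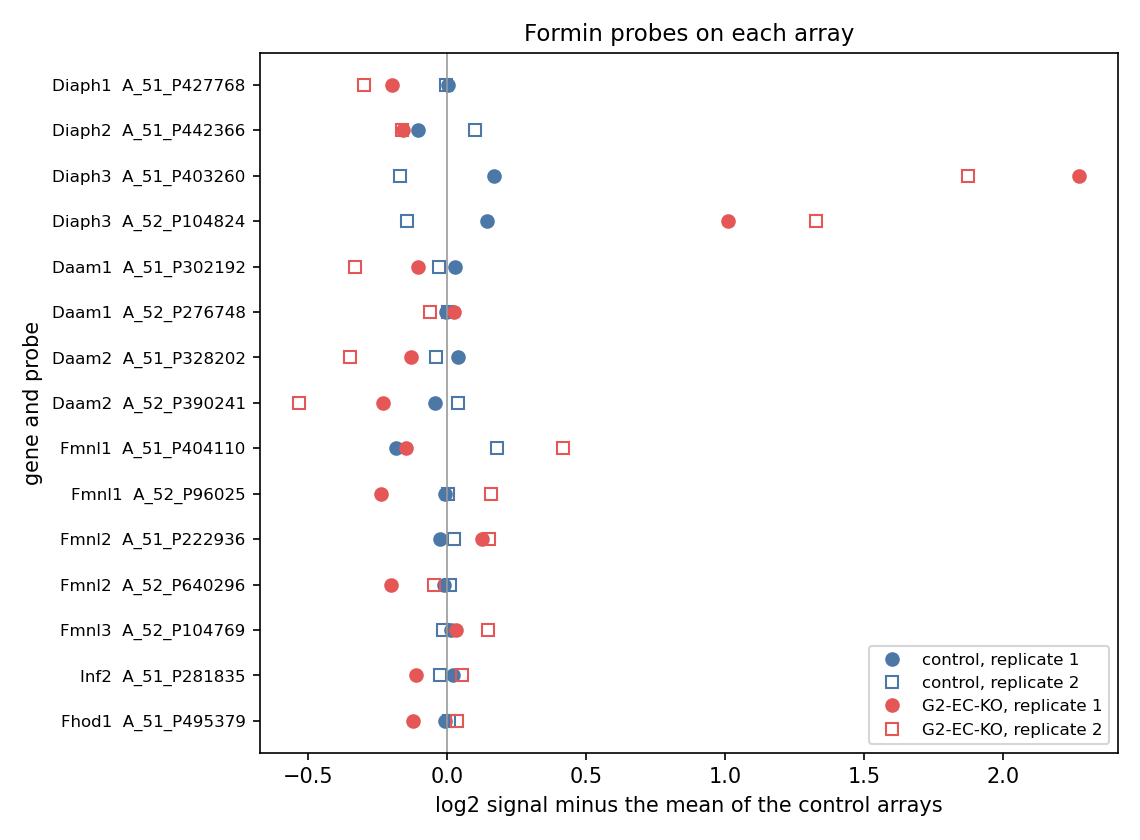
The log2 signal of each of the 15 tested formin probes on each array, minus the mean of the control arrays, with blue for control, red for G2-EC-KO, filled circles for replicate 1 and open squares for replicate 2. Both G2-EC-KO arrays stand between 1.01 and 2.27 above control at the Diaph3 probes, while all other points lie between -0.53 and 0.42.

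Diaph3 (NM_019670) was measured by 2 probes. In log2 units relative to the 75th percentile of the array, probe A_52_P104824 read -3.13 and -3.41 in control and -2.26 and -1.94 in G2-EC-KO. It was well above background on all 4 arrays, and both G2-EC-KO values were higher than both control values. The difference, G2-EC-KO minus control, was 1.17 (SE 0.18, 95% interval 0.71 to 1.63), a 2.25-fold higher signal. Probe A_51_P403260 read -5.38 and -5.71 in control, where neither array had it well above background, and -3.27 and -3.67 in G2-EC-KO. Its difference was 2.07 (SE 0.20), a fitted fold of 4.21. This probe met the filter through the G2-EC-KO arrays only, so the filter favoured a higher value there. The control signals of this probe lay above the lowest signal called well above background on their arrays, so a bound set against that lowest signal adds nothing to the fitted fold, and the fold was smaller under other settings. Both probes had G2-EC-KO higher and their 95% intervals overlapped, but the filter favoured that direction at A_51_P403260. The probes ordered the G2-EC-KO arrays differently, with replicate 1 the higher at A_51_P403260 and replicate 2 the higher at A_52_P104824.

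The size of the difference at A_51_P403260 varied with the setting. With normexp background correction and an offset of 50 it was 1.09, beside 1.003 at A_52_P104824, and with the deposited value table it was 1.68 beside 1.16. The range between the probes went from 0.90 to 0.092 with normexp. The offset exceeded the control signals of A_51_P403260, 34.1 and 27.5, and the parts of the offset and of the correction were not told apart. Leaving out each array in turn moved A_52_P104824 between 1.01 and 1.33 and A_51_P403260 between 1.87 and 2.27.

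**Figure D2:**
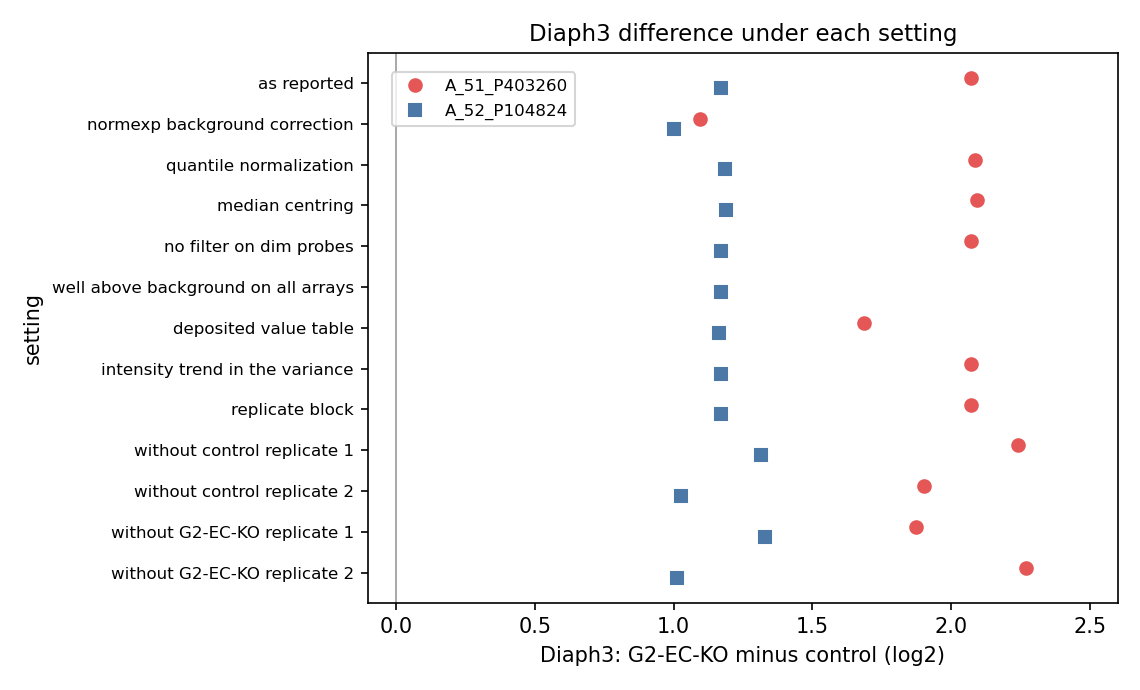
The G2-EC-KO minus control difference (log2) of the 2 Diaph3 probes as reported and under the 12 alternative settings, with circles for A_51_P403260 and squares for A_52_P104824. The squares stay between 1.003 and 1.33; the circles move from 1.09 with normexp to 2.27 without G2-EC-KO replicate 2, and the setting that asks for signal on all arrays has no circle because that probe was not tested.

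Diaph1 and Diaph2, the other diaphanous formins, had differences below 0. Diaph1 (A_51_P427768), which acts in stress fibre assembly, read -0.50 on both controls and -0.69 and -0.80 in G2-EC-KO. The groups did not overlap, and the difference was -0.25 (SE 0.11, 95% interval -0.54 to 0.042). Diaph2 (A_51_P442366), whose gene is on the X chromosome, read 2.23 and 2.44 in control and 2.18 on both G2-EC-KO arrays, a difference of -0.16 (SE 0.12). The high value of Diaph2 was that of control replicate 2, the array with Y-linked signal: without that array the difference was -0.055, and without control replicate 1 it was -0.26. The part of sex in this value was not tested.

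The lowest difference of the family was that of Daam2. This gene (NM_001008231) read 0.56 and 0.64 in control and 0.38 and 0.07 in G2-EC-KO at probe A_52_P390241, a difference of -0.38 (SE 0.15, 95% interval -0.77 to 0.0091). Probe A_51_P328202 read -3.96 and -4.03 in control and -4.12 and -4.34 in G2-EC-KO, a difference of -0.24 (SE 0.13). At both probes the G2-EC-KO arrays were below both controls, replicate 2 the lower. With normexp A_51_P328202 gave -0.071 and A_52_P390241 -0.33. Without G2-EC-KO replicate 1 the difference at A_52_P390241 was -0.53, and without replicate 2 it was -0.23. Markers of pericytes and smooth muscle stood at a median of -0.0050 on G2-EC-KO replicate 1 and -0.31 on replicate 2 relative to the control mean, with 8 of 10 genes below 0 between the groups and a log2 summed level of 7.43 to 7.44 in control and 7.15 to 7.50 in G2-EC-KO; their part in the Daam2 values was not tested.

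The values of Daam1 (NM_026102) differed by probe. Probe A_51_P302192 read -0.90 and -0.96 in control and -1.03 and -1.26 in G2-EC-KO, without overlap, and its difference was -0.22 (SE 0.13). Probe A_52_P276748 read 2.04 and 2.05 in control and 2.07 and 1.99 in G2-EC-KO, with G2-EC-KO values on both sides of the controls, and its difference was -0.018 (SE 0.11), with a sign that turned to 0.0011 with median centring. The 95% intervals, -0.56 to 0.13 and -0.30 to 0.27, overlapped.

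Among the formin-like genes, Fmnl3 (A_52_P104769) read 5.15 and 5.12 in control and 5.17 and 5.28 in G2-EC-KO, a difference of 0.091 (SE 0.11, 95% interval -0.20 to 0.38). Both G2-EC-KO values lay above both controls, and the interval held 0. Fmnl2 (NM_172409) had probes of opposite sign without overlap of the groups at either: A_51_P222936 read 1.16 and 1.21 in control and 1.31 and 1.34 in G2-EC-KO, a difference of 0.14 (SE 0.11), while A_52_P640296 read -2.96 and -2.94 in control and -3.15 and -3.00 in G2-EC-KO, a difference of -0.12 (SE 0.12). Both 95% intervals of Fmnl2 held 0 and they overlapped each other, so the data gave no settled direction for this gene.

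For Fmnl1 (NM_001077698) the spread within the G2-EC-KO group was wider than the difference between the groups at both probes. Probe A_51_P404110 read -0.50 and -0.14 in control and -0.46 and 0.10 in G2-EC-KO, and probe A_52_P96025 read -0.78 and -0.77 in control and -1.01 and -0.62 in G2-EC-KO. The groups overlapped at both, the differences were 0.14 (SE 0.24) and -0.039 (SE 0.17), and both turned sign when an array was left out. Macrophage and monocyte markers, relative to the control mean, stood at -0.30 on control replicate 1, 0.30 on control replicate 2, 0.38 on G2-EC-KO replicate 1 and 0.32 on replicate 2, with 14 of 14 genes above 0 between the groups and log2 summed levels of 3.82 and 4.35 in control and 4.45 and 4.30 in G2-EC-KO. In control, these markers and A_51_P404110 were both higher on replicate 2, while A_52_P96025 read nearly the same on both arrays. In G2-EC-KO, the markers differed little between the arrays (0.38 and 0.32), and both Fmnl1 probes were lower on replicate 1. The part of these markers in the Fmnl1 values was not tested.

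Inf2 and Fhod1 had differences smaller than their standard errors. Inf2 (A_51_P281835) read 3.21 and 3.17 in control and 3.08 and 3.25 in G2-EC-KO, a difference of -0.027 (SE 0.12, 95% interval -0.34 to 0.29). Fhod1 (A_51_P495379) read 2.54 and 2.56 in control and 2.43 and 2.59 in G2-EC-KO, a difference of -0.042 (SE 0.12, 95% interval -0.35 to 0.27). In both genes the controls lay between the G2-EC-KO arrays, and the sign turned without G2-EC-KO replicate 1, to 0.056 and 0.038.

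Over the 13 tested probes of the 9 formins other than Diaph3, the differences ran from -0.38 to 0.14 with SEs of 0.11 to 0.24, and all 13 of the 95% intervals held 0. The bounds of these intervals ran from -0.77 to 0.78, so each lay inside a log2 difference of 1, or 2-fold, in either direction. Each interval is for 1 probe alone, from 2 arrays a group, and they do not hold jointly for the 13 probes. A 2-fold difference is therefore not excluded for the 9 genes. Of the 5 genes with 2 tested probes, the probes differed in sign for 2, Fmnl1 and Fmnl2, and the range over probes was 0.90 for Diaph3 and 0.14 to 0.26 for the others. Over all 5088 genes with more than 1 tested probe the median range was 0.16 and the signs differed for 35.7%.

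**Figure D3:**
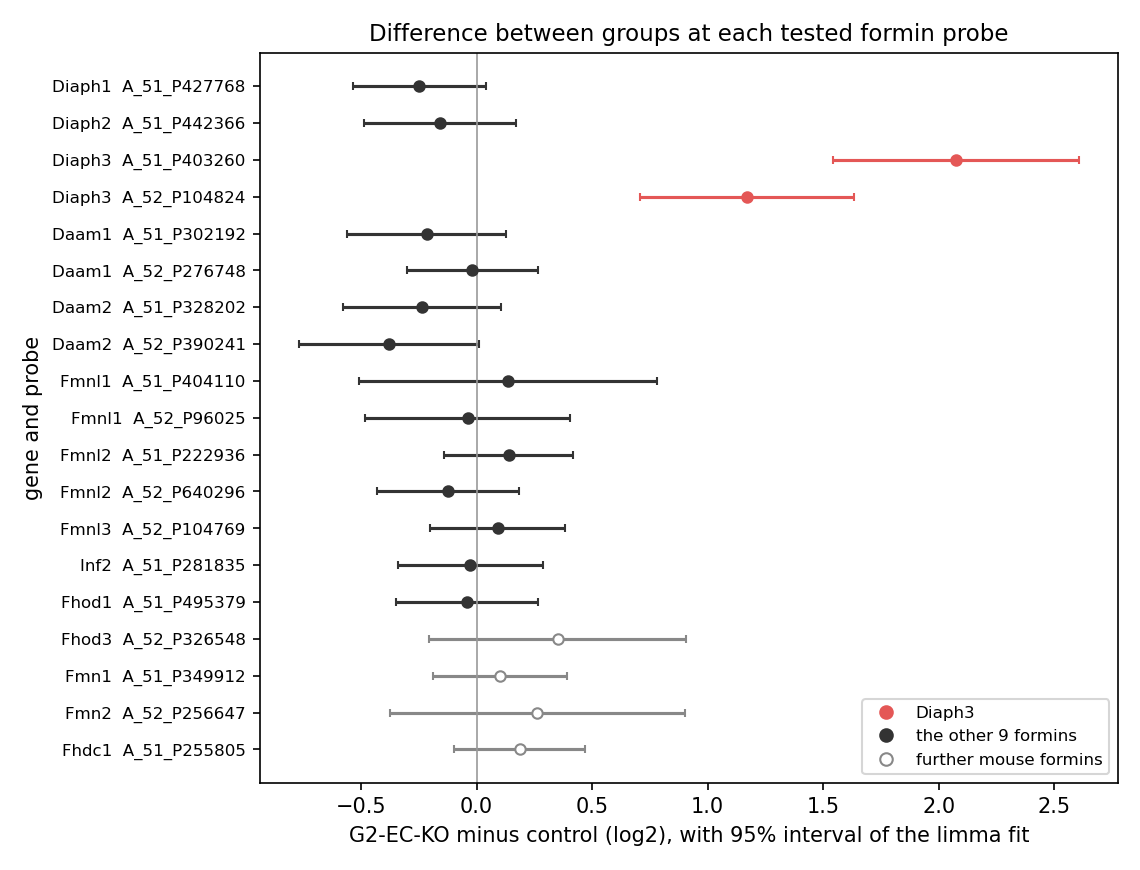
The difference in log2 signal between G2-EC-KO and control at each tested formin probe, with the 95% interval of the limma fit over all probes, in red for Diaph3, black for the other 9 formins and open grey for Fhod3, Fmn1, Fmn2 and Fhdc1. The intervals of Diaph3 start at 0.71 and 1.54, while all the others hold 0. The Diaph3 probe whose interval starts at 1.54 entered the fit through the G2-EC-KO arrays only.

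The remaining mouse formins were Fhod3, Fmn1, Fmn2, Fhdc1 and Grid2ip. Of these, 4 were tested by their brightest probe, all 4 with a difference above 0, a median of 0.23 and 0 past the threshold; Grid2ip was well above background on 0 arrays. Fhod3, the formin that assembles sarcomeres in heart muscle, read -2.44 and -2.49 in control and -2.39 and -1.84 in G2-EC-KO, so that G2-EC-KO replicate 2 alone stood apart, at 0.63 above the control mean against 0.076 for replicate 1. Cardiomyocyte markers stood at 0.64 on the same array and 0.054 on replicate 1, with 15 of 15 genes above 0 between the groups and log2 summed levels of 6.91 and 6.90 in control and 6.96 and 7.48 in G2-EC-KO; their part in the Fhod3 value was not tested. The brightest markers of that list, Actc1 and Myl2, had differences of 0.12 (SE 0.13) and 0.36 (SE 0.20). Fhdc1, which links actin to microtubules, had a difference of 0.19 (SE 0.11), Fmn2, known from the oocyte spindle, one of 0.26 (SE 0.24) and Fmn1 one of 0.10 (SE 0.11).

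Genes of proteins that feed, cap or take apart actin filaments had no common direction. Of 16 profilin, Ena-VASP, cofilin and barbed-end genes, 8 were above 0 and 8 below, against 58.5% of all genes above 0. Their median was 0.013, with 0 past the threshold. The profilin genes Pfn2 and Pfn1 had differences of 0.29 (SE 0.10) and 0.29 (SE 0.20), the cofilin gene Cfl2 one of 0.19 (SE 0.11), and the brightest, Cfl1, one of -0.10 (SE 0.11). Genes of the serum response factor programme, which actin assembly by formins is known to switch on, had 11 of 20 above 0, a median of 0.060 and 0 past the threshold, with 0.47 (SE 0.14) for Fhl1, 0.49 (SE 0.19) for Fhl2, 0.52 (SE 0.20) for Ccn1 and -0.14 (SE 0.16) for the actin gene Actg1.

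Nucleators that work without a formin homology domain had genes on both sides of 0. The Arp2/3 complex, which starts branched filaments, and its activators had 13 of 19 genes above 0, against 58.5% of all genes. Their median was 0.056, with 0 past the threshold. The groups did not overlap at 9 of them with G2-EC-KO higher and at 1 with control higher, beside 4190 and 2240 of all 13628 genes. The activator gene Wasf2 read 5.03 and 4.87 in control and 4.59 and 4.61 in G2-EC-KO, a difference of -0.35 (SE 0.12). The subunit gene Actr2 had a difference of 0.33 (SE 0.12), the leukocyte activator gene Was one of 0.22 (SE 0.10) and the brightest, Arpc1b, one of 0.052 (SE 0.11). Of 8 further nucleator genes, 5 were above 0, with a median of 0.11 and 0 past the threshold: Cobl had 0.39 (SE 0.14), Jmy -0.66 (SE 0.27), the cardiac leiomodin Lmod2 0.60 (SE 0.33) and Lmod1 -0.18 (SE 0.18).

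The lists that lay with Diaph3 were those of cell division. Of 17 contractile ring and cytokinesis genes, 16 were above 0 and 1 below, against 58.5% of all genes above 0. Their median was 1.43, with 13 higher at an unadjusted p under 0.05, against 6.19% of all genes, and 0 past the threshold. Relative to the control mean the list stood at 0.093 and -0.093 on the control arrays and at 1.02 and 1.77 on the G2-EC-KO arrays, beside 0.14, -0.14, 1.01 and 1.33 for Diaph3 at A_52_P104824. The difference of 10 of these genes was larger than that of this Diaph3 probe. The kinase gene Aurkb had 1.78 (SE 0.27), Ect2, an exchange factor that acts at the division plane, 1.65 (SE 0.26), the ring scaffold anillin, Anln, 1.51 (SE 0.24), and the septin gene Septin2, the brightest of the list, 0.13 (SE 0.11). Some marker lists of other cell types had a median difference above 0, those of cardiomyocytes and macrophages as given beside Fhod3 and Fmnl1. Leaving out each array in turn moved the cardiomyocyte median between 0.054, without G2-EC-KO replicate 2, and 0.64. The macrophage median moved between 0.039, without control replicate 1, and 0.65. Fibroblast markers had 11 of 12 genes above 0 and a median of 0.25, with -0.10 and 0.10 in control and 0.23 and 0.31 in G2-EC-KO relative to the control mean. Markers of red cells and platelets had 6 of 7 above 0 and a median of 0.45, with -0.20 and 0.20 in control and 0.91 and -0.023 in G2-EC-KO. Granulocyte markers had 5 of 7 above 0 and a median of 0.19, lymphocyte markers 3 of 11 and -0.092, and endothelial markers 8 of 15 and 0.0090. The part of these cell types in the values of Diaph3 and the division lists was not tested. Of 29 cell cycle genes, 27 were above 0 and 2 below, against 58.5% of all genes above 0. Their median was 1.10, with 0 past the threshold. With only probes well above background on all arrays, 27 genes remained and the median was 1.05. Mad2l1, a spindle checkpoint gene, had 0.99 (SE 0.16), the topoisomerase gene Top2a 1.47 (SE 0.24) and the brightest, Pcna, -0.061 (SE 0.13). The mitotic kinase gene Ttk was not well above background in control, so it entered the fit through the G2-EC-KO arrays only. Its signal was 1.91-fold higher with control signals floored at the lowest signal called well above background, which is not a lower limit. Under normexp the difference of Ttk was 0.87. These lists were chosen with such values of these arrays known, so their direction is not independent evidence.

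**Figure D4:**
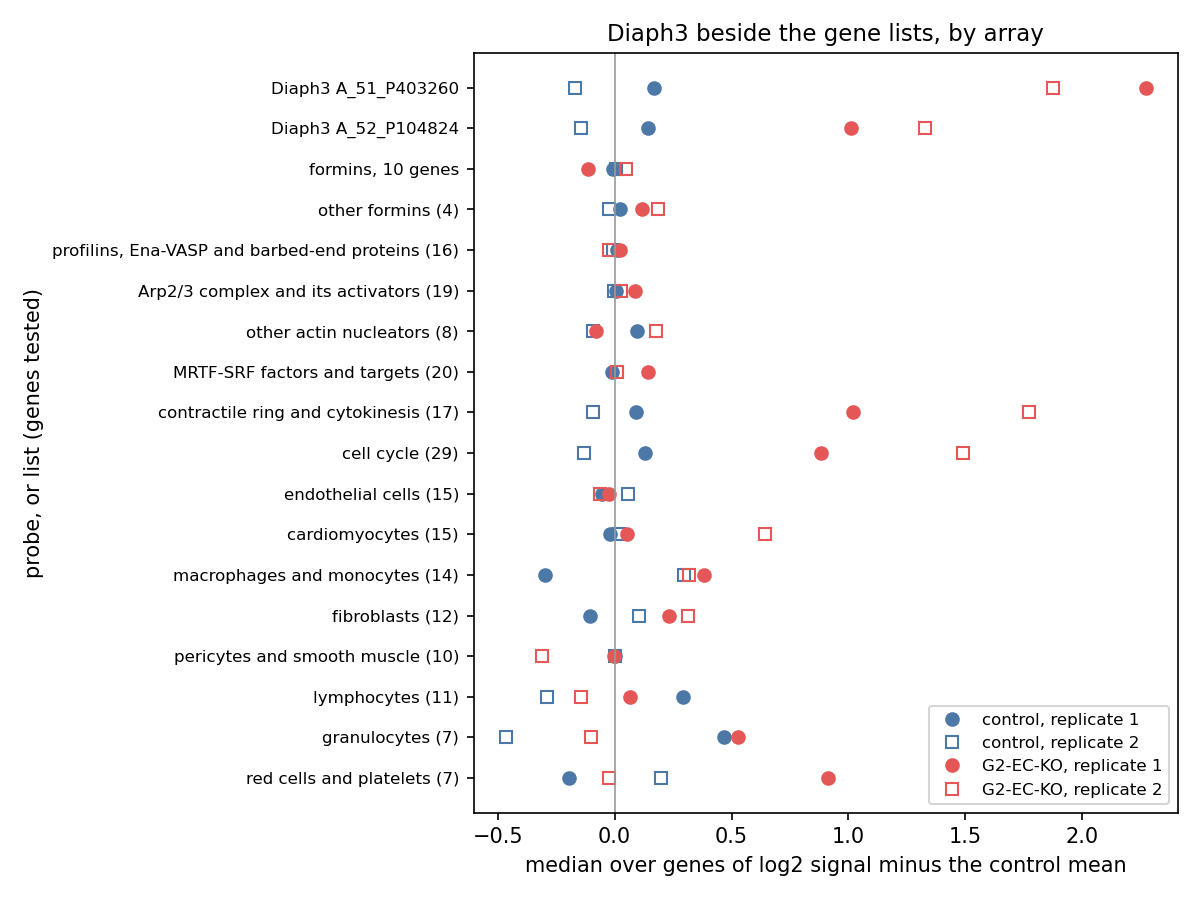
The 2 Diaph3 probes, the median of the 10 formins and the median of each of 15 gene lists on each array (log2 signal minus the mean of the control arrays), with blue for control, red for G2-EC-KO, circles for replicate 1 and squares for replicate 2. Diaph3, the contractile ring list (1.02 and 1.77) and the cell cycle list (0.88 and 1.49) lie to the right on both G2-EC-KO arrays, and the formin median is at -0.12 and 0.047.

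The genes nearest to Diaph3 in pattern over the 4 arrays were found from the root mean square difference to probe A_52_P104824, each probe centred on its own mean, among 13129 other genes well above background on all arrays. The 5 nearest were Uhrf1, which maintains DNA methylation at replication forks, at 0.024, the histone H2A genes H2ac15, at 0.024, and H2ac13, at 0.035, the kinetochore gene Ndc80, at 0.042, and the condensin II gene Ncapg2, at 0.051. The histone genes have near-identical copies, which probes may not tell apart. The median distance over all these genes was 0.59 and 94 lay nearer than 0.2, so the pattern, over only 4 arrays, was shared by many genes. The nearest formin was Fmnl2, at 0.54, and the farthest Daam2, at 0.82.

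**Figure D5:**
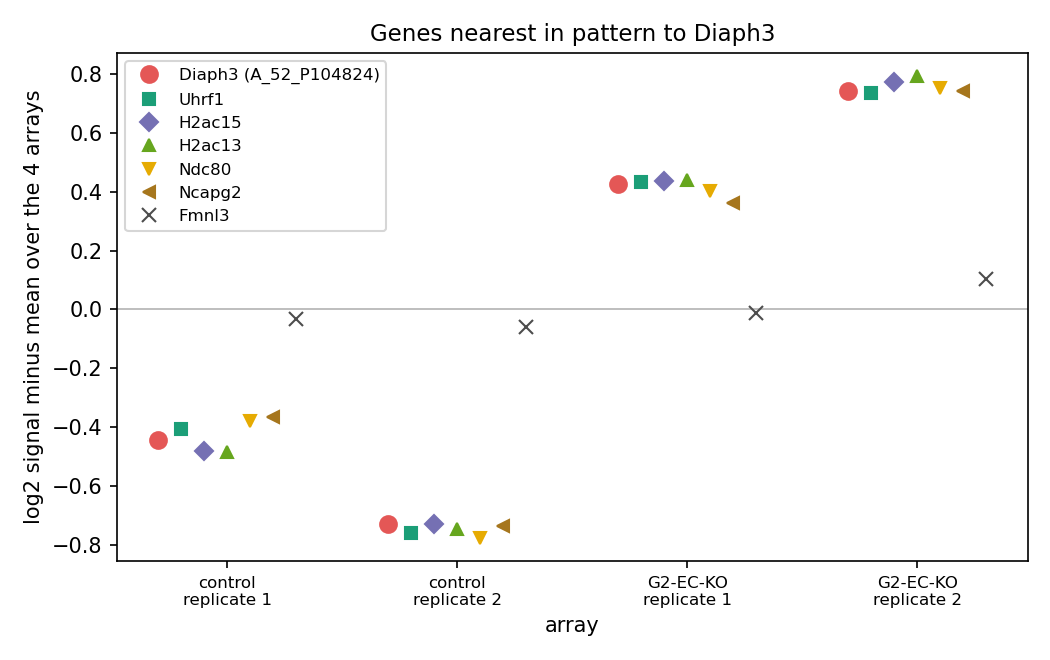
Log2 signal of Diaph3, of the 5 genes nearest to it in pattern and of Fmnl3 on each of the 4 arrays, each minus its own mean over the arrays. The points of Diaph3 and its nearest genes fall together, below 0 on both control arrays and above 0 on both G2-EC-KO arrays, while Fmnl3 stays near 0. The 5 genes were chosen for nearness to Diaph3 on these same values, so their falling together follows from the choice.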

How the data were processed

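Total RNA of 4 samples was labelled with Cy3 and hybridised to 1 array each, per the labels' protocols. The array design was 014868, with annotation on mm9, and images were read with Feature Extraction 10.7.3.1, per the file headers (10.5 per the submitters' processing notes). The authors deposited linear spot intensity, background-corrected by the scanner software with no normalization across arrays. Control spots and outlier spots (87 to 101 an array) were left out, values were put on the log2 scale and set relative to their own array's 75th percentile, and replicate spots were averaged by probe. Accessions were named through a RefSeq table of GRCm38.p6, which named 26933 of 41174 probes; positions of probes are not given, since that build differs from mm9, and the promoter coordinates are those of GRCm38.p6. limma 3.58.1 in R 4.3.3 compared groups (lmFit, eBayes, group only) over 26893 probes well above background on at least 2 arrays, with 2 residual and 2.58 prior degrees of freedom; an exact permutation test of 2 against 2 cannot go below 0.333. The fit was tested on simulated data. A gene was represented by its brightest tested probe, and 6 of 241 listed genes had no named probe. The lists were described by counts and medians, with no set test; 1 pathway list is not reported here. The deposited value table equals median signal minus median background plus 16 on every row, so it is linear intensity, and it was used, floored at 1, as an alternative. The normexp alternative took the median spot signal and median background (a mean spot signal was not used here), with an offset of 50. Named genes were all members, 3 genes of smallest p and the brightest of each pathway list, the 2 brightest of a marker list, the Gata2 probes and the 5 genes nearest to Diaph3; the sex-linked probes were added after the values were seen. The members and lists were chosen with earlier results of these data known.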

Additional observations from a re-analysis of the deposited data

How the results depend on the processing

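All 15 formin probes were refitted under up to 12 alternatives, 179 values in all, and 172 kept their sign; 0 formin probes passed the threshold under any. The reversals were Daam1 A_52_P276748 at 0.0011 with median centring and 0.025 without G2-EC-KO replicate 2, Fmnl1 A_51_P404110 at -0.045 without control replicate 1 and -0.15 without G2-EC-KO replicate 2, Fmnl1 A_52_P96025 at 0.16 without G2-EC-KO replicate 1, and Inf2 at 0.056 and Fhod1 at 0.038 without it. Leaving out 1 array moved these probes from -0.060 to 0.025 (Daam1), -0.15 to 0.42 and -0.24 to 0.16 (Fmnl1), -0.11 to 0.056 (Inf2) and -0.12 to 0.038 (Fhod1). By the brightest probe, 4 formin genes were above 0, with 3 without control replicate 1 and 6 without G2-EC-KO replicate 1 as the extremes. The count of all probes past the threshold was 1, and 2 with normexp background correction, quantile normalization or median centring, 0 without a filter on dim probes, with a filter on all arrays, or with an intensity trend, and 0 to 8 when an array was left out (8 without control replicate 1, 0 without each of the others). With the replicate number as a block it was 0 and the formin count was 0. The difference of replicate 2 from replicate 1 correlated at 0.044 between the groups over 26882 probes. With 1 such difference per group, this cannot decide whether same-numbered arrays were paired. The cause of these shifts was not tested. A_51_P403260, not well above background in control, ranged from 1.09 to 2.27 over the settings.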
